A study of Homo sapiens with 3 samples.

Results

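Plasma membrane carriers that bring amino acids into cells, and the heavy chain that some of them need, were followed at the mRNA level in H660 cells treated with JG231. The set held 10 genes of the 58735 in the expression table, chosen by name: SLC7A11, SLC7A5, SLC3A2, SLC7A1, SLC38A2, SLC38A1, SLC1A5, SLC1A4, SLC6A9 and SLC6A6. The choice was made with earlier results of these data known. H660 (NCI-H660) is an established human neuroendocrine prostate cancer line. The compound JG231 inhibits the chaperone HSP70 at an allosteric site. Parental H660 cultures received the vehicle DMSO, 2.5 μM JG231 or 5 μM JG231, with an exposure of 24 h in the JG231 arms. Each condition had 1 library of total RNA, so no difference has a replicate check, no p-value is given and the values compare libraries.

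Amino acid carriers of the SLC (solute carrier) families move their substrates across the plasma membrane by exchange, by co-transport with ions or by facilitated diffusion. Several SLC7 carriers work as heterodimers, in which the single-span glycoprotein encoded by SLC3A2 (CD98 heavy chain) brings a multi-span light chain such as SLC7A5 or SLC7A11 to the cell surface. Many of these genes belong to the amino acid response, in which phosphorylation of the translation factor eIF2 raises translation of the transcription factor ATF4, and ATF4 acts with C/EBP partners at composite C/EBP-ATF elements. In tumour cells the carriers are best known for leucine uptake ahead of mTORC1 signalling and for cystine uptake ahead of glutathione synthesis.

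The composite element gives a sequence feature by which the members can be set side by side, so the windows around their transcript starts were searched for it. RefSeq windows on GRCh38.p14, running from 250 bases before to 50 bases after a transcript start, were at hand for 8 of the 10 members in 14 windows; SLC7A11 and SLC6A6 had no window. The letters TGATGNAA, searched on both strands, lay in at least 1 window of 5 of these 8 members, against 4.46% of the 27305 genes with a window and 3.62% of all 35116 windows. These members had more windows per gene than the genes as a whole, which gives more places for a match of any letters. The matches follow with flanking bases, 5′ to 3′ on the strand on which the letters read TGATGNAA, with the matched letters in capitals, because they let the response of each gene be set beside its sequence.
SLC3A2: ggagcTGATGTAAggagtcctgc
SLC7A1: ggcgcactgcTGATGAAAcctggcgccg
SLC38A1: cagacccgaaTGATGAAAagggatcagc
SLC1A5: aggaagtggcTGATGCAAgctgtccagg
SLC1A4: cggctggagaTGATGCAAacgggagccg

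The capital letters lie at chr11:62881736-62881743 on the minus strand for SLC3A2, at chr13:29595674-29595681 on the minus strand for SLC7A1 and at chr12:46266513-46266520 on the minus strand for SLC38A1. For SLC1A5 they lie at chr19:46784904-46784911 on the minus strand, in an SLC1A5 exon before an alternative start. For SLC1A4 they lie at chr2:64989392-64989399 on the minus strand, from 7 bases before a transcript start to base 1. Other windows of SLC3A2, SLC38A1, SLC1A5 and SLC1A4 held no match. The SLC3A2 match is inside the transcript, from base 38 to base 45 counted from the transcript start as base 1, and the SLC7A1 match runs from base 8 to base 15. Windows of SLC7A5, SLC38A2 and SLC6A9 held no match. A match is a run of letters and not evidence of binding, and the windows cover only the bases next to the listed starts.

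SLC3A2 also carried the antioxidant response letters TGACNNNGC, which 13.3% of all windows hold. They read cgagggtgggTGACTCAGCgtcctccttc at chr11:62881662-62881670 on the plus strand, with the match in capitals, from 37 to 29 bases before the same start. Windows of SLC7A5, SLC7A1 and SLC1A5 held these letters too, so 4 of the 8 members did, against 16.1% of genes with a window. The E-box letters CACGTG, which MYC-family proteins are known to bind, were found in windows of 2 members, SLC7A5 and SLC1A5, against 8.77% of genes and 7.26% of all windows. No member window held the cyclic AMP response letters TGACGTCA, found in 1.85% of all windows.

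Values are FPKM, that is, fragments scaled to transcript length and to the mapped total of the library, and changes are log2((FPKM + 0.1)/(DMSO FPKM + 0.1)), a scale that understates the change of low genes. From the smallest steps between FPKM values, the DMSO library held about 16.1 M fragments, the 2.5 μM library 20.4 M and the 5 μM library 24.1 M. Genes listed above 0 numbered 21862, 19352 and 17293 in the same order. They became fewer as depth rose, and the reason was not tested. The lowest member value, SLC6A9 in DMSO, stood on about 60 fragments if they came from the canonical transcript, and on 372 and 296 with JG231. The other 9 members had at least 557 in every library. Intervals given below are exact binomial 95% intervals on such fragments and cover counting error only, since amplified reads without molecular identifiers are not independent molecules. They are on the fragment ratio without the pseudocount, so for low genes they are not centred on the printed change. As a yardstick for a single gene, the spread is a robust SD of the log2 ratio of the JG231 libraries to each other, taken over 500 genes of the most similar mean FPKM. It includes any real effect of dose. Rose and fell are used of genes whose log2 change passed 0.25 with over 1 FPKM in either library, the rule for a call.

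The cultures carried the neuroendocrine markers of the line, while the luminal markers reported here for a prostatic adenocarcinoma, the labelled cell type, were at or near 0. All 6 neuroendocrine markers were above 1 FPKM in every library, and the luminal markers KLK3, KLK2 and TMPRSS2 stayed under 1 FPKM, with KLK2 listed at 0. The summed neuroendocrine level was 428 FPKM with vehicle, 176 at the lower dose and 151 at the higher, and the epithelial markers did not move together. KRT8 had 224, 414 and 505 FPKM and KRT18 had 169.5, 299 and 379.5, while EPCAM had 302, 262 and 261. Of the 8 fibroblast, immune and endothelial markers, 7 were under 1 FPKM in every library, and COL1A1 reached 1.27 FPKM at 5 μM. The part of these shifts in the carrier values was not tested, and in bulk RNA fewer cells of a type and less RNA per cell cannot be told apart.

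All 10 members were above 1 FPKM in all 3 libraries. Neighbours in the order of levels were compared with the combined spread of both genes, the square root of the sum of their squared spreads. That spread comes from ratios between the JG231 libraries and does not measure the error of a difference between 2 genes in 1 library. Within and beyond are therefore a scale for the size of a difference and not a test of the order. With DMSO, SLC3A2 (38.04 FPKM) and SLC1A5 (33.3) stood highest, and their difference was within the combined spread. SLC38A2 (24.5) and SLC7A5 (17.9) followed, each beyond the combined spread from its neighbours. SLC38A1 (13.1) and SLC1A4 (11.8) did not differ beyond their combined spread. SLC7A1 had 8.64 FPKM, and SLC6A6 (5.36) and SLC7A11 (3.59) had a log2 ratio of 0.58, within their combined spread of 0.63 but above the spread of either gene. SLC6A9, at 1.16 FPKM, was the lowest member by a log2 ratio of 1.63 to SLC7A11. With 2.5 μM JG231, SLC3A2 stood above SLC1A5 by a log2 ratio of 2.74 and SLC6A9 moved above SLC7A11, although SLC6A9 differed from neither SLC6A6, next above it, nor SLC7A11 beyond the combined spread. Its log2 ratio of 0.499 to SLC7A11 was above the spread of either gene and within the combined 0.68. With 5 μM the first 4 places were the same, and SLC7A11 and SLC6A9, in the last places, differed by a log2 ratio of 0.04. These orders assume the transcript lengths used for FPKM, which matter most for SLC3A2, whose canonical transcript has 1885 bases while its annotated exons cover 6392.

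**Figure D1:**
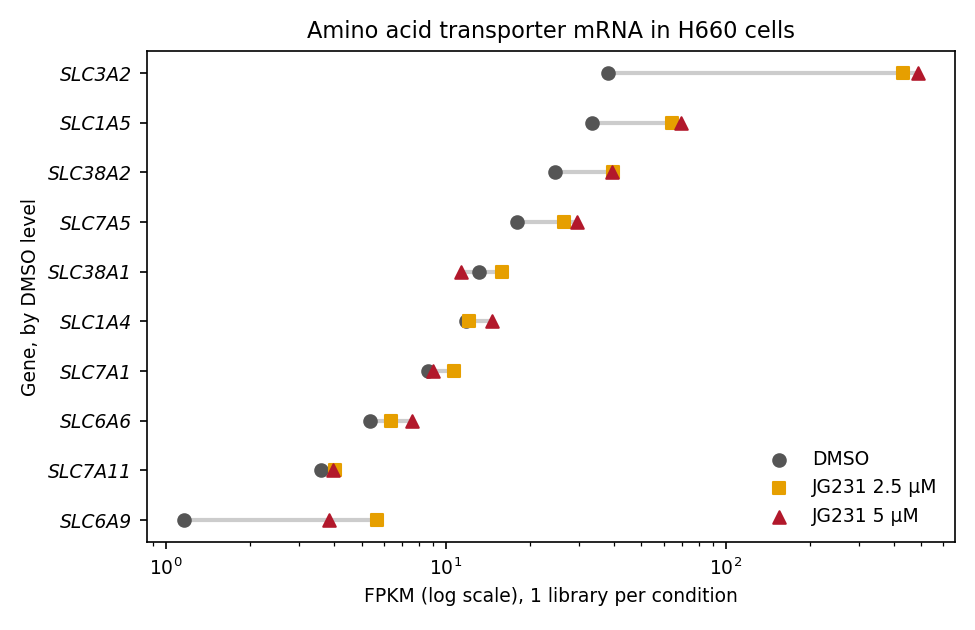
FPKM on a log axis for the 10 genes, ordered by their DMSO level, with 1 point per library (circle DMSO, square 2.5 μM JG231, triangle 5 μM JG231) and a line over the range of each gene. SLC3A2 moved from 38.04 to 430 and 487 FPKM and SLC6A9 from 1.16 to 5.69 and 3.83, while the points of SLC7A11 lie between 3.59 and 4.03.

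As deposited, the set moved up with JG231, unevenly, and no member was called lower. By the rule for a call, 7 of 10 members were called higher at 2.5 μM, where 36.4% of all genes tested were higher and 43.4% lower. At 5 μM 7 of 10 were again called higher, against 36.5% of all genes higher and 45.1% lower. The members called at both doses were 5, namely SLC3A2, SLC6A9, SLC1A5, SLC38A2 and SLC7A5, against 27.9% of genes called higher at both. These 2 comparisons share the DMSO library, and the members were chosen with earlier results of these data known. The median member change was 0.43 at 2.5 μM and 0.58 at 5 μM, where the medians of all genes tested were -0.08 and -0.11.

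A change of more than 2-fold on the pseudocount scale was reached by 2 members at 2.5 μM, SLC3A2 and SLC6A9, where 12.9% of genes were that much higher. At 5 μM SLC1A5 joined them, making 3 of 10 against 14.7% of genes. SLC1A5 lost that 2-fold call, leaving 2 members, at 0.93 when rescaled to a common sum, at 0.68 with mitochondrial and small RNA genes left out and at 0.95 with the length trend removed. The members' 2-fold count is therefore not far from the share of all genes. After rescaling that left out mitochondrial and small RNA genes, 5 members were called higher and 1 lower (SLC1A4) at 2.5 μM, where 24.6% of all genes were higher and 56.2% lower. At 5 μM 5 were higher and 2 lower (SLC7A1 and SLC38A1) on that scale, against 23.0% and 60.1% of all genes. The member median stayed above 0 there, at 0.14 and 0.21. With the length trend removed 9 of 10 were called higher at each dose, all but SLC1A4 at 2.5 μM and SLC38A1 at 5 μM, against 32.9% and 33.0% of all genes.

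SLC3A2 (ENSG00000168003, chromosome 11, 62856004 to 62888880 on the plus strand of GRCh38) encodes the CD98 heavy chain. Its level was 38.04 FPKM with vehicle, 430 at the lower dose and 487 at the higher. Both JG231 libraries were more than 11 times the DMSO value, with folds of 11.3 and 12.8. The log2 changes of 3.49 (interval 3.41 to 3.58) and 3.67 (3.59 to 3.76) compare with a spread of 0.20. Among protein-coding genes it ranked 885th with vehicle, 49th at the lower dose and 51st at the higher. Its change stood at percentile 97.3 of all genes tested at 2.5 μM and 97.9 at 5 μM. GENCODE lists 41 transcripts for the gene, and the table does not separate them.

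The light chains that can pair with this heavy chain moved far less. SLC7A5 (ENSG00000103257, chromosome 16, 87830023 to 87869507, minus strand), the LAT1 exchanger for leucine and other large neutral amino acids, had 17.9 FPKM with vehicle, 26.5 at the lower dose and 29.4 at the higher. Its log2 changes were 0.56 (interval 0.47 to 0.66) and 0.71 (0.62 to 0.81), over 2 times its spread of 0.25. With mitochondrial and small RNA genes left out of the scaling, SLC7A5 changed by 0.27 and 0.33. SLC7A11 (ENSG00000151012, chromosome 4, 138164097 to 138242349, minus strand), the xCT light chain that exchanges cystine for glutamate, had 3.59 FPKM with vehicle, 4.03 at the lower dose and 3.94 at the higher. Its log2 changes of 0.16 (0.01 to 0.32) and 0.13 (-0.02 to 0.29) lay inside its spread of 0.50, and the interval at 5 μM included 0.

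The balance of heavy to light chain mRNA differed between libraries in a way that rescaling a library cannot alter. SLC3A2 had 1.67 times the summed FPKM of its 6 possible light chains (SLC7A5, SLC7A6, SLC7A7, SLC7A8, SLC7A10 and SLC7A11) in DMSO, 13.6 times at 2.5 μM and 13.8 times at 5 μM. That sum was 22.7, 31.7 and 35.2 FPKM, of which SLC7A5 made up 78.7%, 83.5% and 83.6%. SLC7A8 and SLC7A10 were listed at 0 in every library, and SLC7A6 had 0.85, 0.94 and 1.01 FPKM. The ratio of SLC7A5 to SLC7A11 was 4.98, 6.57 and 7.47. These ratios were chosen after the values were seen. With its 1885 bases the canonical SLC3A2 transcript is also the shortest of the 10, and with the length trend removed its log2 changes were 3.26 and 3.35.

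SLC6A9 and SLC6A6 are sodium- and chloride-dependent carriers of the SLC6 family. SLC6A9 (ENSG00000196517, chromosome 1, 43991500 to 44031467, minus strand), the glycine transporter GlyT1, had 1.16 FPKM with vehicle, 5.69 at the lower dose and 3.83 at the higher. It was higher in both JG231 libraries, 4.92-fold and 3.32-fold, and lower at 5 μM than at 2.5 μM. The log2 changes of 2.20 (interval 1.89 to 2.71) and 1.65 (1.32 to 2.15) exceed its spread of 0.46. That spread is taken at its mean over the 3 libraries. Near its DMSO level the spread is wider, at 1.08 for SLC7A6. With a pseudocount of 1 the SLC6A9 changes were 1.63 and 1.16. Exons of CCDC24 on the opposite strand cover 7.87% of its exon bases, and CCDC24 had 21.6, 14.7 and 13.0 FPKM. The libraries were stranded, but whether fragments were assigned by strand is not stated.

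SLC6A6 (ENSG00000131389, chromosome 3, 14402576 to 14489349, plus strand), the taurine transporter TauT, had 5.36 FPKM with vehicle, 6.38 at the lower dose and 7.58 at the higher. Its log2 change of 0.247 at 2.5 μM fell just short of the call and that of 0.49 at 5 μM (interval 0.35 to 0.65) was called. The first lies inside its spread of 0.39 and the second is 1.27 times that spread. Rescaled to leave out mitochondrial and small RNA genes, they became -0.04 and 0.12, and with the length trend removed 0.43 and 0.84.

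The glutamine and neutral amino acid carriers of the SLC1 family split. SLC1A5 (ENSG00000105281, chromosome 19, 46774883 to 46788594, minus strand), the ASCT2 exchanger for glutamine, had 33.3 FPKM with vehicle, 64.1 at the lower dose and 69.4 at the higher. Both JG231 libraries lay about equally above DMSO, with log2 changes of 0.94 (interval 0.86 to 1.03) and 1.06 (0.98 to 1.14) against a spread of 0.22. An antisense lncRNA, ENSG00000275719, covers 23.4% of its exon bases, and was listed at 0 in DMSO and at 1.16 and 0.95 FPKM with JG231. SLC1A4 (ENSG00000115902, chromosome 2, 64988477 to 65023865, plus strand), the ASCT1 exchanger for alanine, serine and cysteine, had 11.8, 12.1 and 14.7 FPKM. Its log2 changes were 0.03 (-0.10 to 0.16) and 0.31 (0.19 to 0.43), the second 1.06 times its spread, and it became -0.070 on the scale that leaves out mitochondrial and small RNA genes. The ratio of SLC1A5 to SLC1A4 was 2.81, 5.29 and 4.73 in the DMSO, 2.5 μM and 5 μM libraries.

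The SLC38 pair of sodium-coupled neutral amino acid transporters lies on chromosome 12 and split in a similar way. SLC38A2 (ENSG00000134294, 46358188 to 46372773, minus strand), the SNAT2 carrier known for its induction by amino acid shortage, had 24.5 FPKM with vehicle, 39.7 at the lower dose and 39.2 at the higher. The JG231 libraries were alike and above DMSO, with log2 changes of 0.69 (interval 0.62 to 0.78) and 0.68 (0.60 to 0.76) against a spread of 0.25. With mitochondrial and small RNA genes left out of the scaling, SLC38A2 changed by 0.40 and 0.30. SLC38A1 (ENSG00000111371, 46183063 to 46270017, minus strand), the SNAT1 carrier of glutamine, had 13.1, 15.9 and 11.3 FPKM. It was above DMSO at 2.5 μM, by 0.27, and below it at 5 μM, by a log2 change of -0.21, both inside its spread of 0.30. With the length trend removed these were 0.51 and 0.24, and on the scale that leaves out mitochondrial and small RNA genes -0.018 and -0.59. The ratio of SLC38A2 to SLC38A1 was 1.87, 2.51 and 3.46 in the same order of libraries.

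SLC7A1 (ENSG00000139514, chromosome 13, 29509414 to 29595688, minus strand), the CAT1 carrier of arginine, lysine and ornithine, works without a heavy chain. Its level was 8.64 FPKM with vehicle, 10.7 at the lower dose and 9.01 at the higher. The log2 changes of 0.31 (interval 0.20 to 0.42) and 0.06 (-0.05 to 0.18) were inside its spread of 0.31, although the first passed the call, and on the scale that leaves out mitochondrial and small RNA genes they were 0.02 and -0.32. With the length trend removed they were 0.52 and 0.47, past the call and the spread at both doses.

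**Figure D2:**
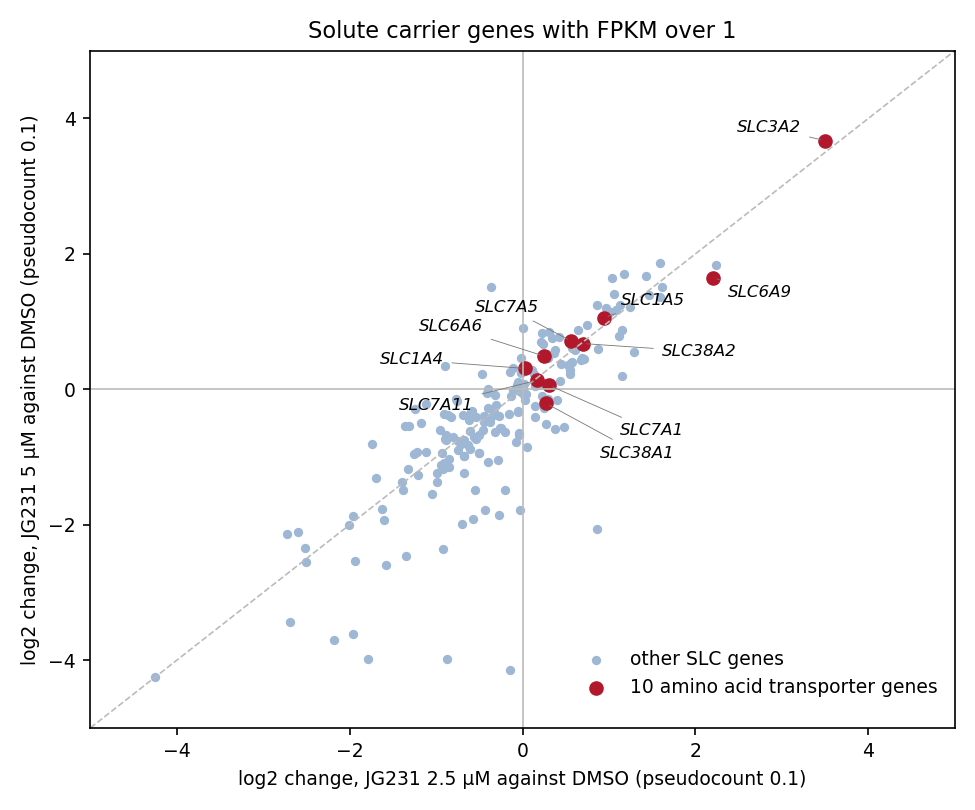
Log2 change at 2.5 μM (horizontal) against that at 5 μM (vertical) for 200 protein-coding SLC genes with over 1 FPKM in at least 1 of the libraries compared, both against the same DMSO library, with equal changes on the dashed line. SLC3A2 at 3.49 and 3.67 stands apart from all other SLC genes, and 8 of the 10 members lie between -0.21 and 1.06 on both axes.

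Sequence and response can be set side by side for the 8 members with a window. Of the 5 with the letters TGATGNAA, SLC3A2 and SLC1A5 were called higher at both doses, while SLC7A1 and SLC38A1 were called at 2.5 μM alone and SLC1A4 at 5 μM alone. The 3 without them, SLC7A5, SLC38A2 and SLC6A9, were called higher at both doses.

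Between the doses, 3 members differed by more than 0.25 in either direction, against 56.8% of all genes tested. SLC6A9 was lower at 5 μM by a log2 difference of -0.56 (interval -0.79 to -0.35) and SLC38A1 by -0.48 (-0.57 to -0.40), each over 1 spread. SLC1A4 was higher at 5 μM by 0.28 (0.17 to 0.39), which is inside its spread. SLC3A2 was higher at 5 μM by 0.18 (0.15 to 0.21), under the call, and SLC38A2 differed by -0.02 (-0.08 to 0.04). Rescaled to a common FPKM sum, the SLC3A2 difference was 0.00036 and that of SLC1A4 was 0.10, short of the call. Other members gained a call. SLC7A1, at -0.246 as deposited, was at -0.42 on the common sum and at -0.33 with mitochondrial and small RNA genes left out. SLC6A6 went from 0.24 to 0.41 with the length trend removed. The summed FPKM of the 10 members was 157 in DMSO, 615 at 2.5 μM and 675 at 5 μM, of which SLC3A2 was 24.2%, 69.9% and 72.1%. Without SLC3A2 the sum was 119, 185 and 188 FPKM.

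Scaling moved the small changes across 0 but not the large ones. After rescaling that left out mitochondrial and small RNA genes, the median of the 13785 genes with a mean of at least 1 FPKM moved from 0.00 to -0.28 at the lower dose and from -0.01 to -0.38 at the higher. On that scale SLC3A2 changed by 3.20 and 3.29, SLC6A9 by 1.93 and 1.29, SLC1A5 by 0.65 and 0.68, and SLC7A11 by -0.12 and -0.24. Changes also follow transcript length in these libraries, and with that trend removed SLC7A11, whose transcript has 9645 bases, changed by 0.45 and 0.65. The 5 members called at both doses stayed above 0 under each scaling tried.

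**Figure D3:**
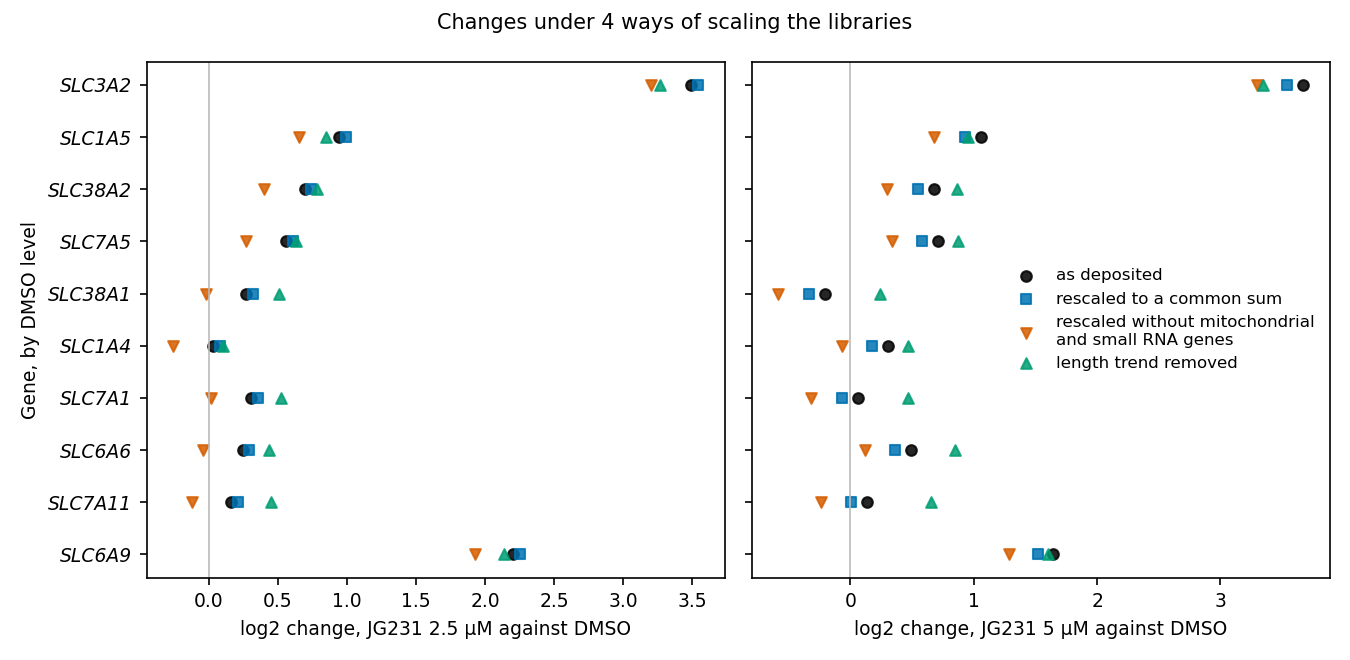
Log2 change of each member at 2.5 μM (left) and 5 μM (right) against DMSO as deposited (circle), rescaled to a common FPKM sum (square), rescaled leaving out mitochondrial and small RNA genes (inverted triangle) and with the transcript length trend removed (triangle). SLC3A2 keeps changes of at least 3.20, whereas SLC7A11 runs from -0.24 to 0.65 at 5 μM.

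The other SLC genes had medians below 0, as did all genes tested (-0.08 and -0.11), unlike the members. The members were chosen with earlier results known, so this contrast is not a test of a difference. All 10 were above 1 FPKM in every library, whereas other SLC genes could pass through DMSO alone, as SLC5A8 did. Of all genes tested, 36.4% were higher and 43.4% lower at 2.5 μM, and 36.5% and 45.1% at 5 μM. Of 361 other protein-coding genes whose symbol starts with SLC, a rule that also takes in a few genes that are not carriers such as SLC7A6OS, 187 passed the filter at 2.5 μM, of which 52 were called higher and 94 lower, with a median of -0.26. At 5 μM 188 passed, 51 were higher and 103 lower, and the median was -0.35. This median was below 0 under each scaling, between -0.55 and -0.20 for the lower dose and between -0.73 and -0.26 for the higher. Leaving out mitochondrial and small RNA genes, 36 were higher and 125 lower of 192 at 2.5 μM, and 30 higher and 134 lower of 191 at 5 μM. Of 101 SLC genes with a mean of at least 5 FPKM, ordered by whichever of their changes was smaller, SLC3A2 was 1st, SLC1A5 13th, SLC38A2 17th, SLC7A5 23rd, SLC6A6 37th, SLC7A1 45th, SLC1A4 47th and SLC38A1 56th, with SLC6A9 and SLC7A11 under the minimum. After SLC3A2 came SLC25A38, the mitochondrial glycine carrier, with 12.6, 38.3 and 46.1 FPKM, then SLC35B1, SLC25A26 and SLC37A1. Ordered by the lesser of the 2 falls in size, the furthest were SLC16A13 (11.6, 1.67 and 2.55 FPKM), the phosphate carrier SLC34A2 (98.4, 25.7 and 16.9), SLC38A10, SLC12A4 and SLC44A1.

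The remaining plasma membrane amino acid carriers were mostly low in this line. Of 32 genes, 13 were listed at 0 in every library: SLC1A2, SLC1A3, SLC1A6, SLC1A7, SLC3A1, SLC6A5, SLC6A7, SLC6A18, SLC7A3, SLC7A8, SLC7A10, SLC7A13 and SLC38A4. Only 7 passed the filter at 2.5 μM, with 2 called higher and 3 lower, and 8 at 5 μM, with 1 higher and 5 lower. The shares of all genes tested were 36.4% higher and 43.4% lower at 2.5 μM, and 36.5% and 45.1% at 5 μM. SLC43A1, the LAT3 carrier of branched-chain amino acids, rose from 3.40 FPKM to 7.20 and 9.18. Its relative SLC43A2, or LAT4, went from 1.999 to 1.19 and 0.43, and the aromatic amino acid carrier SLC16A10 from 1.07 to 0.49 and 0.40. The neuronal glutamate carrier SLC1A1 had 1.477 and 0.36 FPKM and was listed at 0 at 5 μM. SLC1A1, SLC16A10 and, at 5 μM, SLC43A2 passed the filter through DMSO alone, so they could not be called higher. The changes of SLC16A10 (-0.99 and -1.24) lay inside its spread of 1.26, and that of SLC43A2 at 2.5 μM (-0.70) inside 1.14. The list median was -0.08 at 2.5 μM and -0.73 at 5 μM. With the length trend removed it was 0.08 and -0.36.

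Carriers of inner membranes moved in both directions, with shares called lower that, in lists this small, were not far from the 43.4% and 45.1% of all genes. The shares called higher were below the 36.4% and 36.5% of all genes in both lists. Of 8 lysosomal carriers 7 passed the filter, and 1 was higher and 4 lower at 2.5 μM, with 1 higher and 3 lower at 5 μM. SLC7A14 fell from 5.83 FPKM to 0.94 and 1.07, the proton-coupled carrier SLC36A1 from 7.61 to 3.61 and 2.54, and the cystine exporter CTNS from 3.59 to 1.62 and 2.35, while SLC66A1 had 12.4, 13.0 and 16.5. Of 12 mitochondrial carriers 10 passed, 1 higher and 4 lower at 2.5 μM, and 3 higher and 5 lower at 5 μM. SLC25A38 rose, as given above, whereas SLC25A29 fell from 21.0 to 13.8 and 11.4 FPKM, SFXN3 from 4.03 to 2.91 and 2.20, and SFXN2 from 1.52 to 0.18 and 0.34. SLC25A2 was listed at 0. The median of this list was 0.10 at 2.5 μM and -0.24 at 5 μM. On the scale that leaves out mitochondrial and small RNA genes it was -0.19 and -0.61. The lysosomal medians were -0.47 and -0.23 as deposited.

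Glucose and monocarboxylate carriers, taken for comparison, had medians of -0.11 and -0.12 over 8 genes that passed of 11. At 2.5 μM 2 were called higher and 3 lower, and at 5 μM 1 was higher and 3 lower. Among all genes tested the shares were 36.4% and 43.4% at 2.5 μM, and 36.5% and 45.1% at 5 μM. The glucose carrier SLC2A1 went from 10.4 FPKM to 15.8 and 15.6, a rise near that of SLC7A5, while SLC16A3, a lactate exporter, fell from 4.60 to 2.94 and 2.56. SLC2A6 fell from 6.90 to 3.51 and 4.51, SLC2A12 from 1.91 to 0.75 and 1.54, and SLC2A3 was listed at 0.

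The amino acid response, which shares several of its genes with stress signalling, had higher medians than the carriers. Of its 17 genes, 13 were higher and 2 lower at 2.5 μM, and 14 were higher and 2 lower at 5 μM, with medians of 2.27 and 2.19. Of all genes tested, 36.4% were higher and 43.4% lower at 2.5 μM, and 36.5% and 45.1% at 5 μM. TRIB3, PPP1R15A, DDIT3 and ATF3 had the largest changes, between 3.55 and 4.84. ATF4, named outside the fixed rule, had 90.6 FPKM with vehicle, 278 at the lower dose and 331 at the higher. The kinases upstream were not uniform. EIF2AK3, the sensor of the endoplasmic reticulum, had 3.81, 7.98 and 7.15 FPKM, and EIF2AK4, the sensor of uncharged tRNA, had 3.16, 2.04 and 1.79. The CHAC1 enzyme, which breaks down glutathione, had 3.90, 6.63 and 7.69.

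The enzymes that use the imported amino acids were described by substrate. The shares of all genes to set beside the counts below are those given for the amino acid response. That list also holds CHAC1, ASNS and SESN2, so these genes are counted in more than 1 list. For cystine and glutathione, 8 of 12 genes were higher and none lower at 2.5 μM, and 8 were higher and 1 lower at 5 μM. GPX4, which reduces lipid peroxides, rose from 123 FPKM to 393 and 486, NFE2L2, the NRF2 transcription factor, from 11.8 to 28.5 and 29.0, and CBS, the first enzyme of transsulfuration, from 0.86 to 2.26 and 3.22. CTH, the next enzyme, had 1.93, 1.69 and 0.67. SLC7A11, which supplies cystine to this pathway, was not called as deposited, but was with the length trend removed.

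For glutamine and glutamate, 9 of 10 genes passed the filter, with 7 higher and 1 lower at 2.5 μM and 6 higher and 2 lower at 5 μM. Asparagine synthetase, ASNS, rose from 0.77 FPKM to 5.21 and 4.67, the aspartate aminotransferase GOT1 from 7.34 to 25.0 and 35.01, glutamine synthetase, GLUL, from 37.4 to 81.8 and 89.3, and PYCR1, which completes proline synthesis, from 19.8 to 32.0 and 42.6. In the serine and glycine list 6 of 8 genes passed, 4 higher and 1 lower at each dose. SHMT2, which makes glycine in mitochondria, rose from 59.8 FPKM to 241 and 296, PHGDH from 12.4 to 38.5 and 42.7, MTHFD2 from 29.3 to 75.8 and 76.7, and PSAT1 from 30.9 to 70.4 and 75.9. SHMT1 fell from 9.40 FPKM to 5.91 and 5.75. GLDC, which did not pass the filter, went from 0.95 to 0.10 and was listed at 0 at 5 μM. The glycine carriers SLC6A9 and SLC25A38 were also called higher at both doses, SLC6A9 with its lower JG231 value at 5 μM.

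For arginine, 5 of 7 genes passed, 3 higher and 1 lower at each dose, and ARG1 and OTC were listed at 0. ARG2, a mitochondrial arginase, rose from 3.55 FPKM to 16.9 and 24.1, and ASS1, which makes argininosuccinate, from 1.90 to 11.3 and 12.2. ASL fell from 4.84 to 3.86 and 2.29, and ODC1, which turns ornithine into putrescine, rose from 37.8 to 62.6 and 52.1. SLC7A1, the carrier of arginine, was within its spread as deposited but not under every scaling. Only 2 of 5 taurine genes passed. ADO, which oxidises cysteamine, rose from 8.72 to 17.3 and 15.7 FPKM, CSAD fell from 11.7 to 6.75 and 3.20, and CDO1 and GADL1 were listed at 0.

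Of 14 genes of leucine and mTORC1 sensing 12 passed, with 6 higher and 3 lower at 2.5 μM and 7 higher and 3 lower at 5 μM. SESN2, a leucine sensor, rose from 4.07 FPKM to 41.2 and 41.03, while its relative SESN3 fell from 4.26 to 2.58 and 1.83. RRAGA, a Rag GTPase that recruits mTORC1 to lysosomes, rose from 29.0 to 49.7 and 66.3, and RRAGB had 4.74, 5.404 and 8.63. CASTOR1 was listed at 0. The medians of the enzyme and sensing lists other than taurine, and of the amino acid response, stayed above 0 under each scaling. They came closest to 0 with mitochondrial and small RNA genes left out, at 0.02 for leucine sensing at 2.5 μM and 0.08 for arginine at 5 μM. On that scale the cystine and glutathione list had 5 genes higher and 2 lower at 2.5 μM, and leucine sensing 4 higher and 5 lower at 5 μM. Of all genes, 24.6% were higher and 56.2% lower there at 2.5 μM, and 23% and 60.1% at 5 μM.

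**Figure D4:**
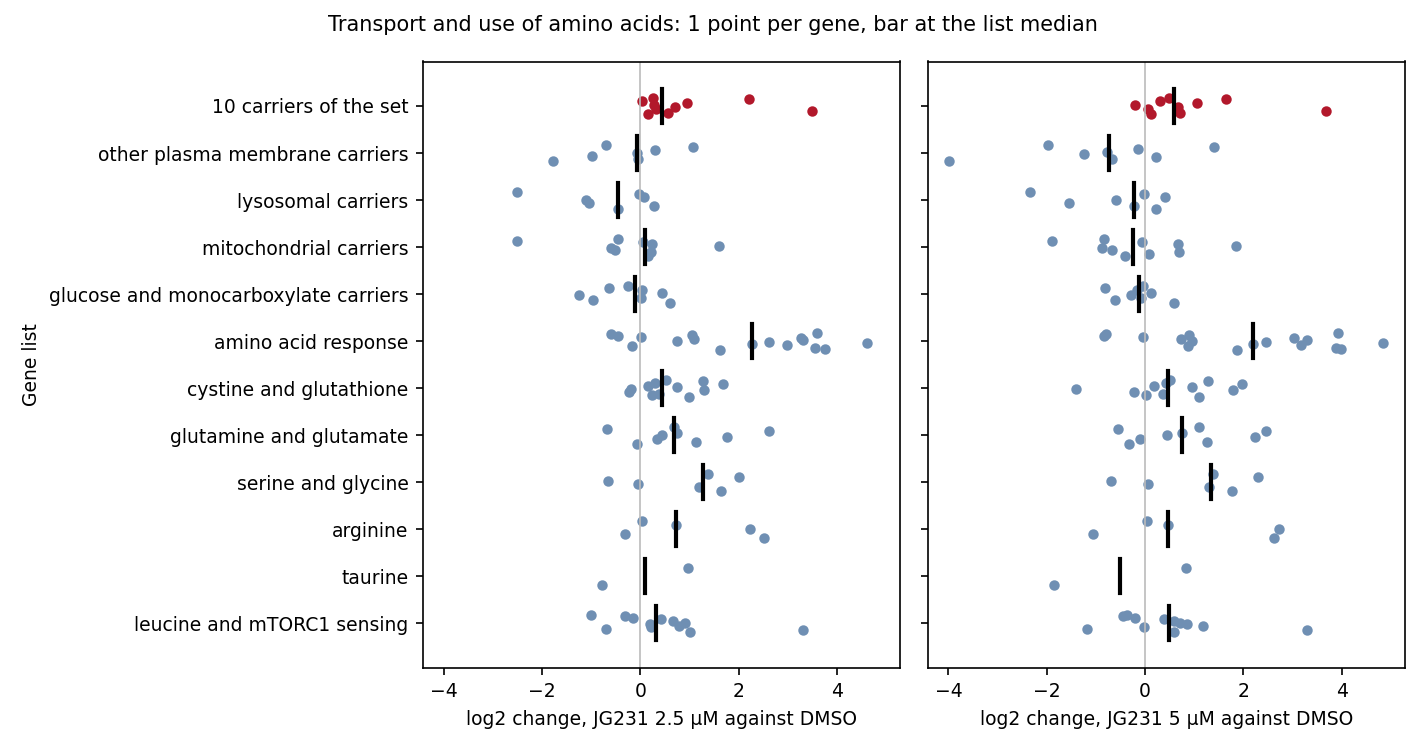
Log2 change at 2.5 μM (left) and 5 μM (right) against DMSO for the genes of each list that had over 1 FPKM in either library compared, with 1 point per gene, the 10 members in red and a black bar at each median. The member medians are 0.43 and 0.58, those of the amino acid response 2.27 and 2.19, and those of the other plasma membrane carriers -0.08 and -0.73.

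The genes whose pair of changes lay closest to SLC3A2, among 7052 protein-coding genes with a mean of at least 5 FPKM, were LURAP1L, TNFRSF12A and FHL2. Likeness was the distance in the plane of the 2 changes over 3 libraries, and was 0.17, 0.19 and 0.19. LURAP1L had 10.4, 118 and 119 FPKM, TNFRSF12A had 6.02, 60.4 and 77.2, and FHL2 had 0.67, 7.48 and 9.94. For SLC6A9 they were ING2, IER5L and VEGFA, at distances of 0.04, 0.12 and 0.13, and VEGFA had 16.7, 71.2 and 53.8 FPKM.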

How the data were processed

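RNA-seq of 3 H660 libraries was analysed. The submitters' processing notes list HISAT2, featureCounts, GRCh38 and hg38, whereas the paper's methods name HISAT and StringTie; versions, annotation release and use of strand are not given in the sources used here. The authors deposited the result as FPKM per gene, corrected for length and mapped fragments but not scaled between libraries, with 1 column per library. FPKM values are not counts, so no count model was used.

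Of the 58735 genes, 58207 had their identifier in GENCODE release 44. Changes used a pseudocount of 0.1 and the thresholds of the paper's filter, read here as FPKM over 1 in either library and an absolute log2 change over 0.25. The paper also kept genes that went to or from 0, a rule that was not added here. Fragments came from steps of FPKM times exon length in single-transcript genes, whole within 0.1 for 92.8%, 90.3% and 87.7% of values in the DMSO, 2.5 μM and 5 μM libraries, and intervals from fragments on the canonical transcript. The length trend was removed by lowess (fraction 0.3). The members and lists were chosen with earlier results of these data known. Named genes were the 10 members, up to 4 genes per list with the largest change at 5 μM and one sign over both doses, carriers and enzymes listed at 0, 5 SLC genes at either extreme, and the 3 nearest genes of each member changed 2-fold at both doses. Genes named beyond these were chosen after their values were seen. Alternatives were pseudocounts of 1 and 0.01, 2 rescalings, centring on the median gene, the length trend, and filters. Some luminal markers are not reported here. Scripts were tested on simulated data. Promoter windows were from RefSeq. Computation used Python 3.11.15 with statsmodels 0.14.6, scipy 1.17.1, pandas 2.3.3 and numpy 2.4.6, and plots matplotlib 3.10.9.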

Additional observations from a re-analysis of the deposited data

Results flagged for a closer look

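SLC38A1 lay on opposite sides of DMSO at the 2 doses. Against the same DMSO library its log2 change was 0.27 with 2.5 μM JG231 but -0.21 with 5 μM. Both lie inside its spread of 0.30, and the second is not a call. With the length trend removed both were above 0, at 0.51 and 0.24, and with mitochondrial and small RNA genes left out both were below 0, at -0.018 and -0.59. Each group is 1 library, and the difference was not tested.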

How the results depend on the processing

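SLC3A2, SLC6A9, SLC1A5, SLC38A2 and SLC7A5 kept the direction of their change at both doses under the other pseudocounts, the 2 rescalings, centring and removal of the length trend. Rescaled to leave out mitochondrial and small RNA genes, SLC38A1 changed by -0.018 at 2.5 μM and SLC1A4 by -0.070 at 5 μM, against 0.27 and 0.31 as deposited. On that scale 1 member was called lower at 2.5 μM and 2 at 5 μM, and the median member change at 5 μM was 0.21. Rescaled to a common sum, 1 member was called lower at 5 μM. With a mean of at least 5 FPKM required, 1 member was changed 2-fold at 2.5 μM, since SLC6A9 was left out. Leaving out mitochondrial and small RNA genes moved the median gene to -0.28 and -0.38. No paired analysis was possible because each condition has 1 library. At about 60 fragments, SLC6A9 in DMSO is the least precise value.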
